A study of Homo sapiens with 48 samples.

Results

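The 9 genes described here are HLA-B, HLA-C, HLA-E, HLA-F, B2M, TAP1, PSMB9, NLRC5 and CD274, which were examined for regions of RELA, RELB and FOSL1 binding and of H3K27 acetylation in L3.6pl cells. A region was taken where a deposited peak overlapped the annotated gene on hg38 or the 20 kb on either side of it, and each region was given to the nearest of the 9 genes. They are 9 of 20033 protein-coding genes, and on the chromosome sequences they held 88 of the 392665 regions of all 16 peak lists. A further 243 of their regions lay on alternate sequences of the same build, which are given separately throughout. The labels and the study describe L3.6pl as a human pancreatic cancer cell line, and the results concern that line alone.

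The cells received PBS as vehicle, TNFα for 30 min, TNFα for 6 h, TWEAK for 30 min or TWEAK for 6 h. RELA, RELB and the histone mark H3K27ac were each precipitated in all 5 conditions, and FOSL1 was precipitated in vehicle only. The 48 samples comprise 16 conditions with 3 replicates each, and the authors deposited 1 merged peak list per condition. No value therefore has a replicate spread, no test between conditions was possible, and every difference is a difference between lists. The peak names for RELA after TNFα for 30 min mention replicate 1 as well as merging, and whether that list holds all 3 replicates could not be established. On the chromosomes the RELA lists held 3004 regions in vehicle, 11266 and 7294 after TNFα for 30 min and 6 h, and 2791 and 3677 after TWEAK for 30 min and 6 h. The RELB lists held 2414 to 4101 regions, the FOSL1 list 58864 and the H3K27ac lists 53895 to 61194. The number of reads behind each list is unknown, and a missing region means that no peak was called, not that binding was absent. The values are the fold enrichment of ChIP reads over input at the peak summit, and for the broad H3K27ac regions an average over the region.

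Nucleated cells show peptides from their own proteins on MHC class I molecules, which consist of a heavy chain encoded by the HLA genes and the light chain B2M. The peptides are cut by the proteasome, in which PSMB9 is an inducible catalytic subunit, and TAP1 forms part of the transporter that carries them into the endoplasmic reticulum. NLRC5 is a transactivator of the class I genes, and CD274 encodes the checkpoint ligand PD-L1. RELA is the transactivating subunit of canonical NF-κB signaling, which TNFα engages, and RELB is the partner of p52 in the noncanonical branch engaged by TWEAK. The promoters of classical class I genes carry an NF-κB element known as enhancer A.

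The printed sequences are those under the RELA regions of the 9 genes, with the intron site called for RELB, since these are the only places at the 9 genes where either factor was called. All were read 5′ to 3′ from hg38, and capitals mark matches to the NF-κB consensus on either strand. The first is the B2M promoter, where RELA was found in the lists of both ligands.
B2M start, chr15:44711347-44711446, plus strand: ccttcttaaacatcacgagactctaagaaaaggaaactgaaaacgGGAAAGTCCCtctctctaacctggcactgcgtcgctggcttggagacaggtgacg
B2M downstream site, chr15:44728802-44728902, plus strand: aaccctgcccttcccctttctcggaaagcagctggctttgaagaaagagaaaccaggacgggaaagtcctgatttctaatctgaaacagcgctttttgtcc
B2M intron site called for RELB, chr15:44712604-44712704, plus strand: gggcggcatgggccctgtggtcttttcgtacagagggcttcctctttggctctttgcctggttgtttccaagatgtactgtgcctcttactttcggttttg
TAP1 match before the start, chr6:32853757-32853786, minus strand: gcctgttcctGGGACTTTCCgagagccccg
TAP1 match after the start, chr6:32853663-32853692, minus strand: accggggcgcGGAGAGTCCCaggcccggcc
PSMB9 downstream site, chr6:32861301-32861407, plus strand: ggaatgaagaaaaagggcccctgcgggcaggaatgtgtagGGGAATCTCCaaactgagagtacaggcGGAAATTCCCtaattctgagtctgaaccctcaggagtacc
PSMB9 downstream site, APD haplotype sequence: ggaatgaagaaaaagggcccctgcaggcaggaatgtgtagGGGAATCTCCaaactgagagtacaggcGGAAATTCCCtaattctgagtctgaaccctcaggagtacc
HLA-B promoter, QBL haplotype sequence, gene strand: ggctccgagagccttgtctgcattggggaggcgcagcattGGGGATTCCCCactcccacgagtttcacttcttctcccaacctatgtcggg

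On the chromosome sequences, RELA after TNFα for 30 min was called at 3 of the 9 genes, B2M, TAP1 and PSMB9, and none of the 9 had a RELA region in vehicle. Over all protein-coding genes the share with a RELA region in the same window was 34.3% after TNFα for 30 min and 2.91% in vehicle, and 31.7% had one after TNFα for 30 min and none in vehicle. The share among the 9 genes was thus near that of the background. Within 1 kb of the start RELA was called in that list at the B2M promoter and at the start shared by TAP1 and PSMB9, which counts for 3 of the 9 genes against 8.48% of all genes. After TNFα for 6 h only B2M held a RELA region (background 17.7%, or 15.2% without a vehicle region, and 3.5% within 1 kb of the start). The same held after TWEAK for 30 min, with backgrounds of 4.6%, 2.45% and 0.928%. After TWEAK for 6 h no member had one (background 3.03%). RELB was called at B2M alone and only after TWEAK for 6 h, where the background was 8.41%, or 6.93% for genes without a vehicle region. In the other 4 RELB lists none of the 9 genes had a region, where 1.8% of all genes had one in vehicle, 0.958% after TNFα for 30 min, 2.22% after TNFα for 6 h and 0.814% after TWEAK for 30 min. H3K27ac, a mark of active promoters and enhancers, was found in the windows of 5 of the 9 genes in vehicle (background 85.8%), 7 after TNFα for 30 min (84.5%), 7 after TNFα for 6 h (85.8%), 6 after TWEAK for 30 min (84.9%) and 6 after TWEAK for 6 h (85.4%). In these counts, as in the background, a region counts for every gene whose window holds it, so TAP1 and PSMB9 share theirs. HLA-B and HLA-C had none in any list on the chromosome. With alternate sequences counted and each region given to its nearest gene, 8 of the 9 genes had H3K27ac in vehicle. The count was 9 after TNFα at either time and after TWEAK for 30 min, and 8 after TWEAK for 6 h. These counts have no share over other genes beside them, and an MHC gene has up to 8 copies. They therefore describe the 9 genes and compare nothing.

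**Figure D1:**
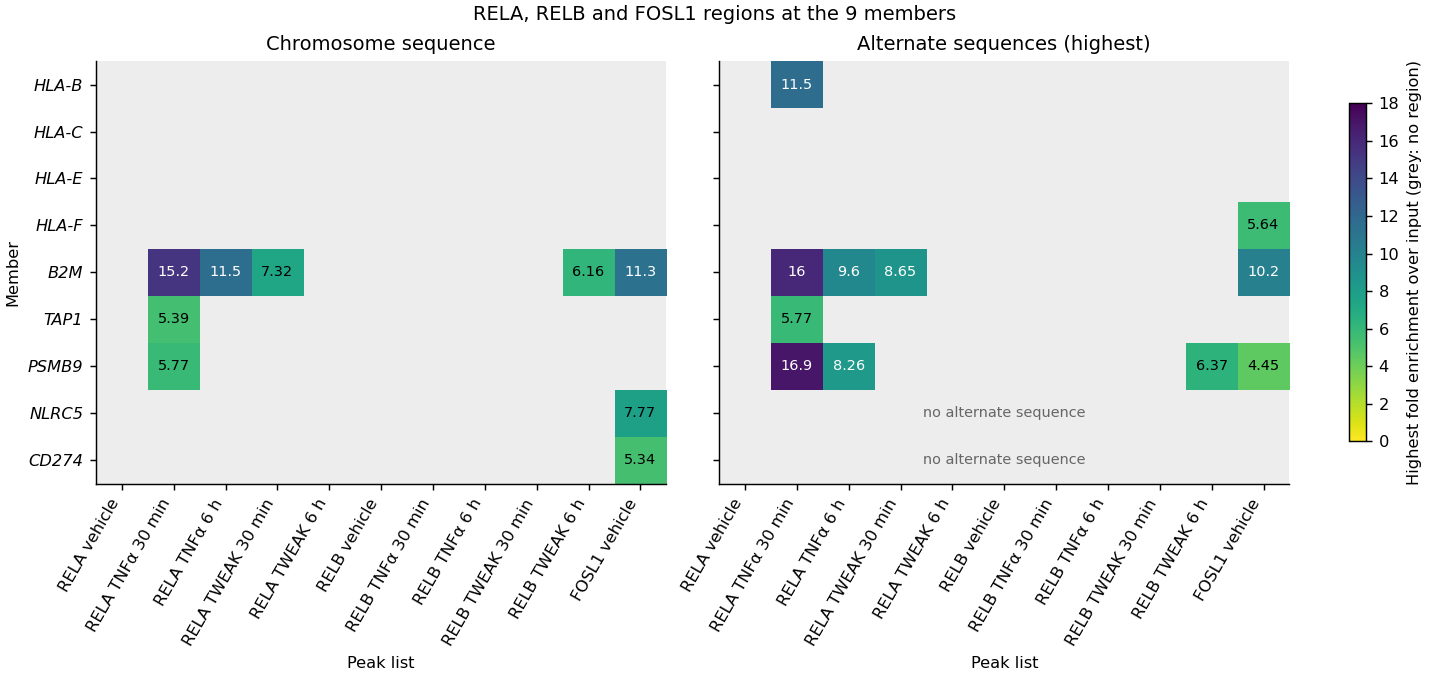
Highest fold enrichment over input at each of the 9 genes (rows) in the RELA, RELB and FOSL1 peak lists (columns), with the chromosome sequences in one panel and the alternate sequences in the other. Grey cells had no region. B2M is the gene with values in most lists, and HLA-B and the RELB region at PSMB9 appear only in the panel of alternate sequences.

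B2M (chromosome 15, 44711358 to 44718851, plus strand) encodes the light chain shared by all class I molecules. Its strongest RELA region lay at the promoter, with the summit at -96 bp from the start and 98 bp from the neighbouring gene PATL2 on the opposite strand. The RELA fold there was 15.2 after TNFα for 30 min, 11.5 after TNFα for 6 h and 7.32 after TWEAK for 30 min. No RELA region was called in vehicle or after TWEAK for 6 h. The order TNFα for 30 min, TNFα for 6 h and TWEAK for 30 min also held for rank, since 4.05%, 8.68% and 32.0% of the regions of the respective lists had a fold at least as high. The summits of all 3 lists lay within the printed promoter sequence, close to the NF-κB match that begins 125 bases before the start. The same sequence also holds 2 matches to the interferon response motif GAAANNGAA on either strand, at 144 and 138 bases before the start.

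The build holds B2M a second time, on an alternate sequence of chromosome 15 that does not differ from the chromosome in the 200 bp around any of these summits. There the promoter fold was 15.99, 9.60 and 8.65 in the same 3 lists. The order of the lists was the same on both copies, which are not replicates, and whether they share reads was not tested.

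A weaker RELA region lay 17335 bp downstream of the B2M start and 136 bp before the annotated gene TRIM69, so that its place near B2M is one of distance only. Its fold was 9.25 after TNFα for 30 min and 5.80 after TNFα for 6 h. It was absent from the lists of vehicle and TWEAK. The window of 200 bp held no NF-κB consensus match, although it held 1 match each to the interferon response motif and to TTCNNNGAA, the GAS motif of interferon-γ response.

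RELB after TWEAK for 6 h was called in intron 1 of B2M, at 1137 bp from the start, with a fold of 6.16. Of all regions in that list 49.3% had a fold at least as high. The site held none of the 5 motifs searched, the NF-κB consensus among them (27.2% of that list), did not overlap FOSL1 (78.8%), and was not called on the alternate sequence although the 200 bp are identical there. RELA at the promoter and RELB in the intron were thus called at different positions and in lists of different treatments.

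**Figure D2:**
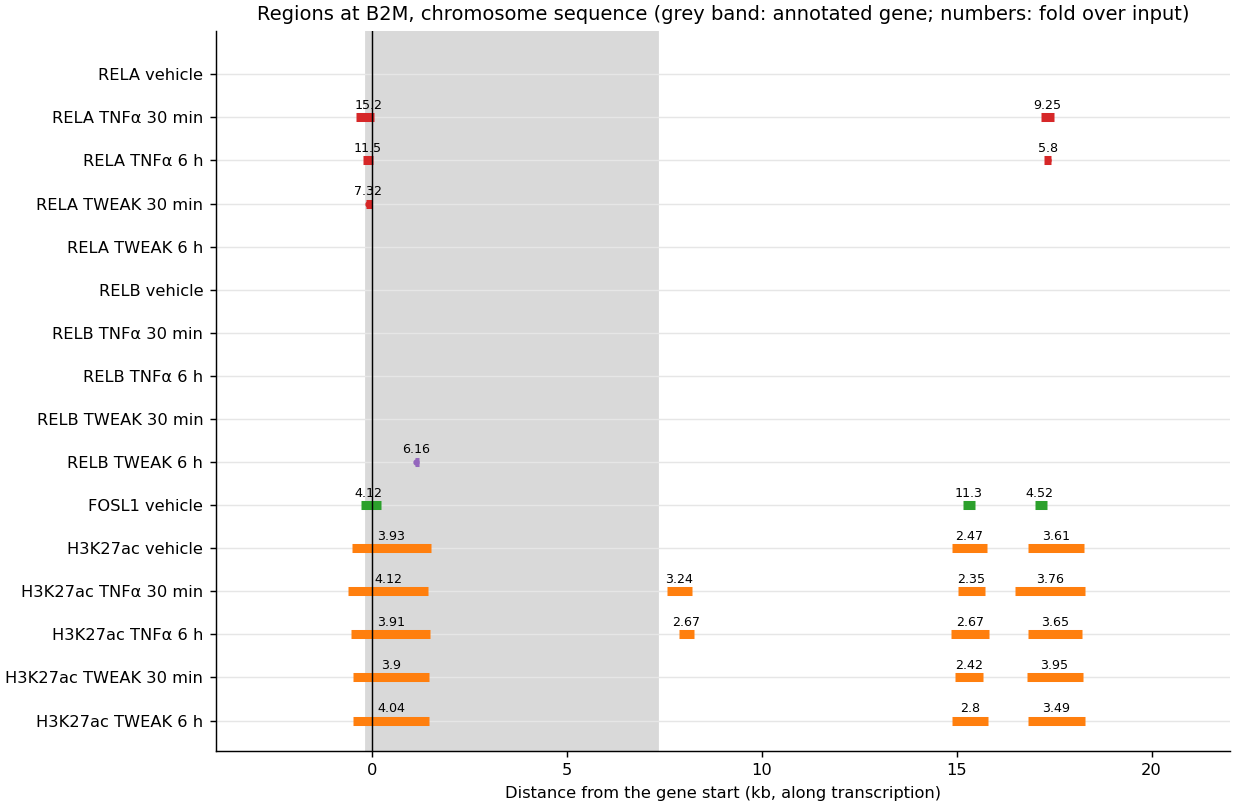
Regions at B2M on the chromosome sequence in all 16 lists (rows), with the distance from the gene start in kb on the horizontal axis, the annotated gene as a grey band and fold over input as numbers. The RELA regions at the start have folds of 15.2, 11.5 and 7.32, and the H3K27ac regions at the start are present in all 5 conditions.

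H3K27ac at the B2M start differed little between the lists. Its fold was 3.93 in vehicle, 4.12 after TNFα for 30 min, 3.91 after TNFα for 6 h, 3.90 after TWEAK for 30 min and 4.04 after TWEAK for 6 h. On the alternate sequence the values ran from 3.72 to 4.08. An H3K27ac region 7887 bp past the start appeared on the chromosome after TNFα for 30 min (3.24) and for 6 h (2.67) and in no other list. On the alternate sequence vehicle also had it, at 2.43, so its presence in TNFα lists alone depended on the copy. FOSL1, an AP-1 subunit, was called in vehicle at the B2M start with a fold of 4.12, and at 15304 and 17134 bp with folds of 11.3 and 4.52. Both RELA regions of B2M overlapped a FOSL1 region.

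TAP1 and PSMB9 are transcribed in opposite directions from a shared start region in the class II part of the MHC on chromosome 6. TAP1 spans 32845209 to 32853816 on the minus strand, and PSMB9 spans 32844136 to 32859851 on the plus strand as annotated. RELA after TNFα for 30 min was called at -48 bp from the TAP1 start with a fold of 5.39, which 61.6% of that list reached or exceeded. It was called in no other RELA or RELB list. The 200 bp around the summit held 2 NF-κB matches, printed above, and 2 interferon response matches, but no FOSL1 region overlapped it.

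The build holds 7 further sequences of the MHC, named APD, COX, DBB, MANN, MCF, QBL and SSTO after the haplotypes they were taken from. Reads from the MHC are placed among these and the chromosome, and which of them L3.6pl resembles was not tested. Copies of a site are not replicates, here or at the other MHC genes, and whether they share reads was not tested. The TAP1 region was also called on APD, COX, MANN, MCF, QBL and SSTO, with folds between 5.00 and 5.77. DBB had none, and it differed from the chromosome by 1 base in the 200 bp (C19T, counted from 1 at the first of these bases on the plus strand) whereas the other haplotypes did not differ. The folds were thus low and similar on 7 of 8 copies. These 7 do not differ in the 200 bp, and how reads were divided among them was not tested.

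At the PSMB9 downstream site the copies differed most. The site lies 7134 bp past the PSMB9 start and 1475 bp past the end of the gene, and its RELA fold after TNFα for 30 min was 5.77 on the chromosome and 4.62 on MANN. On APD, SSTO and MCF it was 16.9, 14.6 and 12.7, which 2.65%, 4.75% and 7.93% of the list reached. COX, QBL and DBB had no region. The highest fold at a copy of PSMB9 was above those at the B2M promoter, 15.2 on the chromosome and 15.99 on the alternate sequence. How reads were divided among copies was not tested, so this does not rank the sites.

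The 3 copies with high RELA folds were also those on which other lists had a region. RELA after TNFα for 6 h was called at the site on SSTO (8.26), MCF (7.54) and APD (6.11) and on no other copy. RELB after TWEAK for 6 h was called on SSTO (6.37) and APD (5.94), and FOSL1 on APD and MCF at 4.45 each. The site lies 7510 bp from TAP1 and so within its window too. With alternate sequences counted, 2 of the 6 MHC members, TAP1 and PSMB9, thus had this site in their windows for RELA after TNFα for 6 h and for RELB after TWEAK for 6 h, where 11.6% and 3.23% of the 155 protein-coding genes between 29 and 33 Mb of chromosome 6 had a region on at least 1 copy. APD, MCF and SSTO share a single difference from the chromosome in the printed sequence, G25A, while DBB has A64T and COX, MANN and QBL have none, with positions counted from 1 at its first base. Neither difference lies in the 2 NF-κB matches, which all 8 copies hold.

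H3K27ac near this site was called on APD, MCF and SSTO only. Its fold there was 3.44 to 3.72 in vehicle, 5.75 to 6.38 after TNFα for 30 min and 4.30 to 4.81 after TWEAK for 30 min. After 6 h it was 3.54 to 3.90 with TNFα and 3.07 to 3.80 with TWEAK. All 3 copies were above vehicle at 30 min of either ligand, and at 6 h the ranges overlapped that of vehicle.

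**Figure D3:**
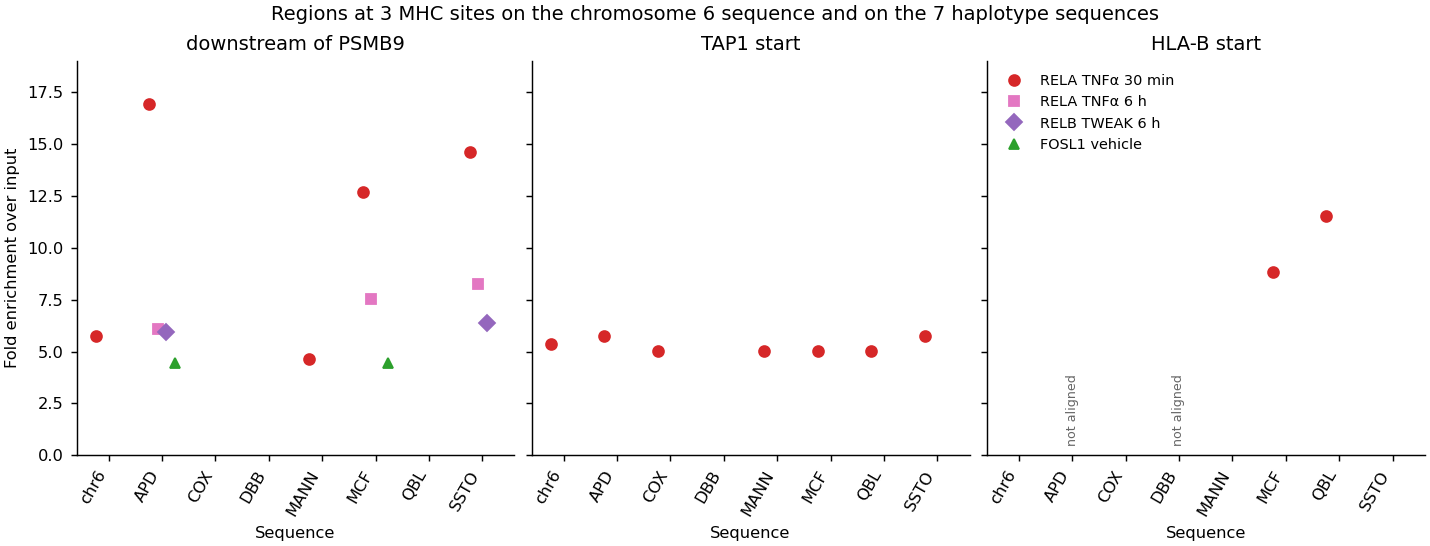
Fold enrichment over input of RELA, RELB and FOSL1 regions at 3 MHC sites, the HLA-B start, the TAP1 start and the PSMB9 downstream site (panels), on the chromosome 6 sequence and the 7 haplotype sequences (horizontal axis). Folds at TAP1 lie between 5.00 and 5.77, and those at the PSMB9 site reach 16.9 on APD.

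The shared TAP1 and PSMB9 start was acetylated on more copies after treatment than in vehicle. In vehicle an H3K27ac region within 1 kb of the start was called on 4 of 8 copies, SSTO, COX, APD and MCF, with folds of 2.69 to 3.75, and not on the chromosome. All 8 copies had one in each of the 4 treated lists. The folds ran from 4.61 to 5.73 after TNFα for 30 min (median 4.89) and from 3.82 to 5.21 after TWEAK for 30 min (median 4.31). At 6 h they ran from 3.22 to 4.10 with TNFα (median 3.84) and from 3.07 to 4.91 with TWEAK (median 3.48). On the 4 copies with a vehicle region, the ratio to vehicle after TNFα for 30 min was 1.34 to 2.00. These copies are not replicates, and whether they share reads was not tested.

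Among the heavy chains, HLA-B (chromosome 6, 31353872 to 31367067, minus strand) is a classical class I gene with enhancer A. RELA after TNFα for 30 min was called at its promoter on QBL, with a fold of 11.5, and on MCF, with a fold of 8.85. The chromosome, COX, MANN and SSTO had no RELA region, and APD and DBB could not be aligned there. None of the other 9 lists of RELA and RELB had a region at HLA-B on any copy. With alternate sequences counted, RELA after TNFα for 30 min was thus found at 4 of the 9 genes, B2M outside the MHC among them. Of the 6 MHC members, 3 had such a region in their window, HLA-B, TAP1 and PSMB9. The same 3 had it within 1 kb of the start, where TAP1 and PSMB9 share it. Of the same 155 genes of the MHC interval, 18.7% had such a region in their window on at least 1 copy, and 6.45% had it within 1 kb of the start.

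H3K27ac at the HLA-B start followed the same list. No copy of 6 had a region in vehicle, whereas 5 of 6 had one after TNFα for 30 min, with folds of 3.12 to 5.05, and the chromosome was the copy without it. MCF alone had one after TNFα for 6 h (4.06) and after TWEAK for 30 min (3.29), and no copy had one after TWEAK for 6 h. Of the 155 genes of the interval, 2 (1.29%) had acetylation at the start on at least 1 copy after TNFα for 30 min and on none in vehicle. At a cutoff of 5 copies, the number seen at HLA-B, HLA-B alone was left (0.645%). That share follows from the choice of cutoff and does not set HLA-B apart.

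The promoters of the heavy chains differ at enhancer A, and the printed stretches from RefSeq (GRCh38.p14) show it.
HLA-B, chr6:31357307-31357376, minus strand: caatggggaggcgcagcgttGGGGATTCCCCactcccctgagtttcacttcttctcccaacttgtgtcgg
HLA-C, chr6:31272216-31272285, minus strand: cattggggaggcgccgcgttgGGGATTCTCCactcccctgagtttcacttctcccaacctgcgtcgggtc
HLA-F, chr6:29723235-29723304, plus strand: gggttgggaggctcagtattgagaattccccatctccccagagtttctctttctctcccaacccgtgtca
HLA-B holds overlapping NF-κB matches that begin 177 and 176 bases before the start, and HLA-C holds a match 172 bases before it. HLA-F holds none, and its stretch differs from that of HLA-B by 2 bases in the element, against 1 for HLA-C. Over the 250 bases before the start, HLA-B and HLA-C differed by 28 edits, HLA-B and HLA-F by 50, and HLA-C and HLA-F by 55. No RELA or RELB region was called at HLA-C or HLA-F on any copy.

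HLA-C (31268749 to 31272130, minus strand) had no region of any kind on the chromosome. H3K27ac at the start was called on 3 of its 7 copies, the chromosome included, in vehicle (3.72 to 4.88) and on 4 after TNFα for 30 min (3.36 to 5.64). It was called on 5 after TNFα for 6 h, on 3 after TWEAK for 30 min and on 3 after TWEAK for 6 h, where the highest fold was 8.01. The region with that fold, on DBB, was 323 bp long, against 737 bp on DBB in vehicle. HLA-C was therefore acetylated in all 5 conditions on some copies, with overlapping ranges.

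HLA-E (30489509 to 30494194, plus strand) encodes a nonclassical heavy chain that is recognized by receptors of natural killer cells. On the chromosome its start had no H3K27ac region in vehicle, and the fold was 4.35 after TNFα for 30 min, 3.07 after TNFα for 6 h, 4.15 after TWEAK for 30 min and 3.93 after TWEAK for 6 h. On 6 haplotypes vehicle did have a region, at 2.96 to 3.72. On these 6 the ratio to vehicle was 1.40 to 1.68 after TNFα for 30 min and 1.31 to 1.83 after TWEAK for 30 min. At 6 h it ran from 0.960 to 1.25 with TNFα and from 0.845 to 1.26 with TWEAK. The chromosome gave a gain in all treatments where the haplotypes gave higher folds at 30 min and mixed ratios at 6 h. RELA, RELB and FOSL1 were not called at HLA-E.

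HLA-F (29722775 to 29738528, plus strand) encodes another nonclassical heavy chain. Its start carried H3K27ac after TNFα only, on 2 of 7 copies at 30 min (2.76 and 2.99) and on 3 of 7 at 6 h (2.60 to 3.16), and on none in the other 3 lists. A region about 29 kb downstream differed from vehicle the other way at 30 min. There 6 haplotypes had H3K27ac in every list, with folds of 3.53 to 4.53 in vehicle, 2.59 to 3.51 after TNFα for 30 min and 2.99 to 3.28 after TWEAK for 30 min. All 6 were lower than vehicle at 30 min with either ligand. After TNFα for 6 h 5 of the 6 were higher than vehicle, and after TWEAK for 6 h 5 of the 6 were lower. The 6 haplotypes are not replicates, and whether they share reads was not tested. FOSL1 was called beside this H3K27ac region, without overlapping it, on COX (5.64) and on DBB and MANN (4.75 each). Its summits lay 29797 to 29830 bp from the HLA-F start, within an annotated long noncoding RNA gene. The place near HLA-F is thus one of distance only.

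**Figure D4:**
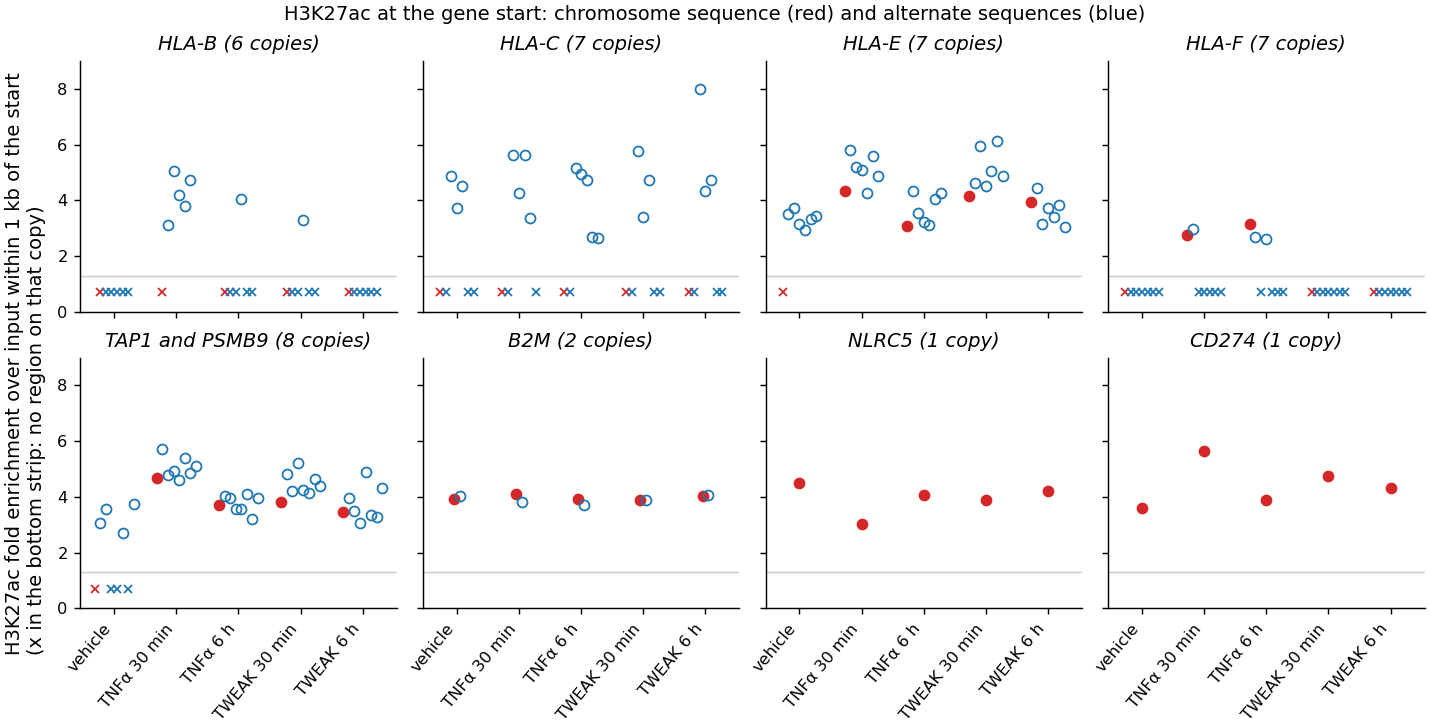
H3K27ac fold enrichment over input within 1 kb of the start (vertical axis) in the 5 conditions (horizontal axis) for each gene, with the chromosome in red and the alternate sequences in blue. A cross in the bottom strip marks a copy without a region. TAP1 and PSMB9, which share a start, show crosses in vehicle only.

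On the chromosomes, H3K27ac within 1 kb of the start was present in vehicle at 3 of the 9 genes, B2M, NLRC5 and CD274, against 62.2% of all genes. It was present at 7 after TNFα for 30 min (60.4% of all genes) and for 6 h (62.0%), and at 6 after TWEAK for 30 min (61.0%) and for 6 h (61.8%). HLA-E, HLA-F, TAP1 and PSMB9 had it after TNFα for 30 min and not in vehicle, which 0.948% of all genes had. HLA-E, TAP1 and PSMB9 had it in all 4 treatments and not in vehicle, against 0.105%, or 21 of 20033 genes. TAP1 and PSMB9 count for the same region, and all 3 genes had a vehicle region on haplotypes, so these counts rest on the chromosome sequence.

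NLRC5 (chromosome 16, 56989485 to 57083531, plus strand) and CD274 (chromosome 9, 5450503 to 5470566, plus strand) lie outside the MHC and had no regions on alternate sequences. Neither had a RELA or RELB region in any list. NLRC5 held 8 FOSL1 regions with folds of 3.56 to 7.77, all more than 71 kb from its start, and several lay within or beside CPNE2. CD274 held 2, each with a fold of 5.34, at -12725 bp within PLGRKT and at 4866 bp in intron 1. On the chromosomes FOSL1 was thus called at 3 of the 9 genes, B2M, NLRC5 and CD274, where 82.7% of all genes had a region. Within 1 kb of the start it was called at B2M alone, against 43.5%. With alternate sequences counted, 3 of the 6 MHC members, HLA-F, TAP1 and PSMB9, had FOSL1 in their windows. Of the 155 genes of the MHC interval 53.5% had it on at least 1 copy. No MHC member had it within 1 kb of the start on any copy, against 20.0%.

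At these starts the list for TNFα for 30 min differed from vehicle in opposite directions. At CD274 the fold was 3.61 in vehicle, 5.66 after TNFα for 30 min, 3.89 after TNFα for 6 h, 4.77 after TWEAK for 30 min and 4.33 after TWEAK for 6 h. The ratio to vehicle after TNFα for 30 min was 1.57, and 0.764% of the 11913 genes with a region in both lists had a ratio of at least 1.5. The median ratio over those genes was 1.00. The 2 CD274 regions cover different stretches, from -620 to 438 bp in vehicle and from -829 to -111 bp after TNFα for 30 min. Their folds are averages over these stretches, and how far the ratio rests on the extent was not tested. At NLRC5 the fold was 4.50 in vehicle, 3.02 after TNFα for 30 min, 4.08 after TNFα for 6 h, 3.90 after TWEAK for 30 min and 4.21 after TWEAK for 6 h. Its ratio of 0.670 was the lowest among the members for which a ratio could be formed, and 1.15% of the same 11913 genes had vehicle at least 1.5 times as high, a limit that NLRC5 just missed. The upstream CD274 region at -12793 bp varied less, from 4.28 to 4.79.

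**Figure D5:**
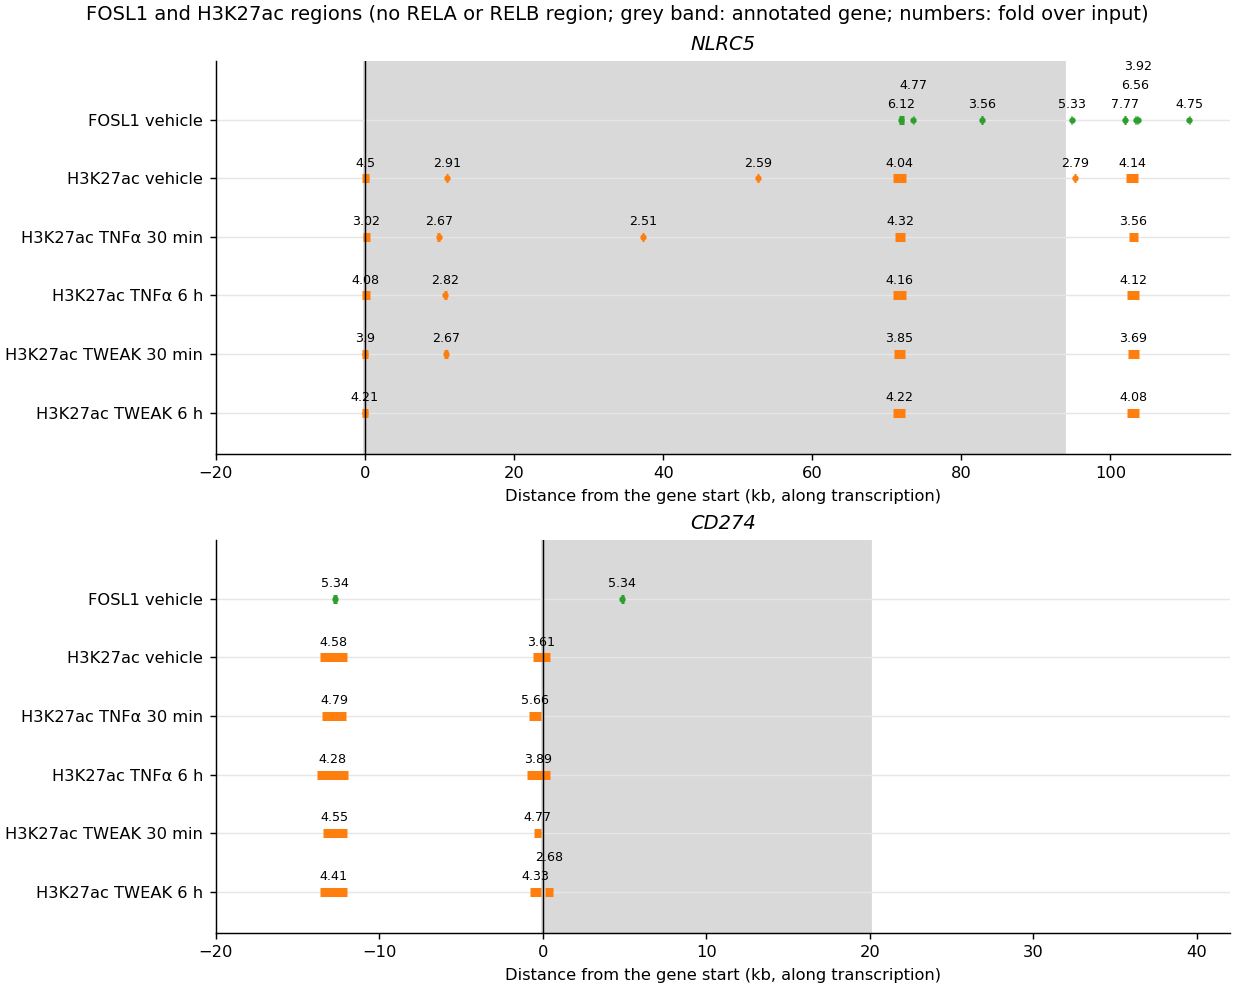
FOSL1 and H3K27ac regions at NLRC5 and CD274 on the chromosome sequences, with the distance from the gene start in kb on the horizontal axis, the lists as rows, the annotated gene as a grey band and fold over input as numbers. H3K27ac at the CD274 start is 3.61 in vehicle and 5.66 after TNFα for 30 min, and at the NLRC5 start it is 4.50 and 3.02.

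Of the 4 RELA regions called after TNFα for 30 min on the chromosomes, 3 held an NF-κB consensus match within the 200 bp around the summit, against 37.5% of all 11266 regions of that list. The match was absent from the B2M downstream region. FOSL1 overlapped 2, both at B2M, against 58.0% of the list, and H3K27ac lay within 500 bp of the summit in vehicle at the same 2, against 60.1%. The TAP1 region had H3K27ac after TNFα for 30 min and not in vehicle, as did 13.1% of the list. The interferon response motif was held by 3, the TAP1 region and both at B2M, against 13.7%, and TTCNNNGAA by the B2M downstream region alone, against 20.4%. None held the AP-1 motif TGANTCA, which 14.4% of the list held, and the PSMB9 site alone held the TEAD motif GGAATG (17.5%). With 4 regions these counts describe the sites and compare nothing.

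RefSeq promoters were given for HLA-B, HLA-C, HLA-F, B2M, TAP1, PSMB9 and CD274. In the 250 bases before the start, HLA-B, HLA-C, B2M and TAP1 held an NF-κB match, against 9.96% of 35116 promoters. HLA-F, B2M, TAP1 and CD274 held the interferon response motif, against 6.88%, and CD274 also held TTCNNNGAA, against 6.57%. PSMB9 held none of the 5 motifs. TAP1 has 2 entries, and the matches above are those of the entry at its annotated start. The other entry, which begins further into the gene, held 1 match to TTCNNNGAA, at 189 bases before its start, and none to the NF-κB or interferon response motif.

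A list of 22 other genes of the pathway was examined in the same way. After TNFα for 30 min RELA was called at 15 of the 22, against 34.3% of all genes, at 7 of 12 genes of peptide processing and loading and at 8 of 9 regulators. High folds were found at IRF2 (17.2), TAPBP (16.7), CIITA (14.7), IRF1 (13.6), RFX5 (11.9), STAT2 (11.4) and RFXANK (9.63). TAPBP, which bridges TAP to the heavy chain, had its region at -458 bp from the start, and RFX5, a subunit of the RFX complex on class I promoters, had it at -197 bp. IRF1, an interferon regulatory factor, had it at -54 bp. RFXANK had its region at 359 bp and CIITA at -5331 bp. At IRF2 and STAT2 the region lay 90880 and 26161 bp from the start. Both places are past the end of the gene, so they are given by distance only. The regions of TAP2 and PSMB8 are those of TAP1 and PSMB9, and PSME1, PSME2 and IRF9 share 1 region, so the 15 genes do not stand for 15 sites.

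After TNFα for 6 h RELA was called at 11 of the 22, against 17.7% of all genes. In vehicle (2.91%) and after TWEAK for 30 min (4.6%) it was called at 2, IRF1 and IRF2, and after TWEAK for 6 h (3.03%) at 0. RELB after TWEAK for 6 h was called at 4, IRF1 and IRF2 among them, against 8.41%, and in the other RELB lists (0.814% to 2.22%) at 0. FOSL1 was called at 17, against 82.7%, and H3K27ac at 21 or 22 in each list, against 84.5% to 85.8%.

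H3K27ac at the start of cell type markers in vehicle was called at 5 of 5 epithelial genes, 1 of 5 leukocyte genes (CD68, 1.81), 1 of 3 fibroblast genes (COL1A1, 3.43) and 0 of 2 endothelial genes. The epithelial markers EPCAM, KRT8 and CDH1 were thus acetylated, and the leukocyte markers PTPRC and CD3E had no region. Across the 10 RELA and RELB lists, the genes with a pattern of highest folds most like that of B2M were CREBRF and BNIP1, which are neighbours with the same regions, at a distance of 0.0913, and AZIN1 at 0.141.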

How the data were processed

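ChIP-seq was performed for RELA, RELB, FOSL1 and H3K27ac in L3.6pl cells. The authors aligned reads to hg38 (the submitters' processing notes name Bowtie2 2.5.0, SAMtools 1.18 and deepTools 3.3.2) and called peaks with MACS2, version not given in the sources used here, without a shifting model, against input and with a cutoff of 0.05. They deposited 1 list of merged replicates per condition, 11 of narrow and 5 of broad peaks. The deposited fold enrichment is a ratio of ChIP over input, the deposited −log10 q is the significance of a peak, and the deposited summit is an offset from the peak's start. The deposited score and −log10 p columns, the latter 1 in each of 16 lists, were not used, and there were 0 unused columns of per-sample values. The depth per sample is unknown.

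Genes and starts were taken from GENCODE 44. The gene window was 20 kb and an overlap needed 1 bp (bedtools 2.31.1 as a check). H3K27ac was counted up to 500 bp from a summit or 1 kb from a gene start, and motifs were searched on both strands in 200 bp around the summit. Copies on alternate sequences were aligned with minimap2 2.31-r1302, compared with edlib 1.3.9.post1 and read with pysam 0.24.0 under Python 3.11.15 with numpy 2.4.6 and pandas 2.3.3. Promoters are from RefSeq GRCh38.p14.

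The genes, pathway list and markers were chosen with earlier results of these data known. The genes named beside the 9 are those of the pathway list with the 8 highest RELA folds after TNFα for 30 min (1 of them is not reported here), the cell type markers, the neighbours of the sites and the 3 genes whose pattern over 10 lists was nearest to that of a member; this last rule gave genes for B2M only. The alternatives were other windows and distances to the start, stricter fold or q limits, other minimum overlaps and other motif and H3K27ac windows, and the alternate sequences were a later choice, made after seeing the data. The functions were tested on simulated data. Each condition was 1 list, so no test between conditions was made.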

Additional observations from a re-analysis of the deposited data

Results flagged for a closer look

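Regions on the alternate sequences of the MHC were set apart because they lie outside the chromosome sequences on which the counts of genes rest. On the 7 haplotype sequences RELA after TNFα for 30 min had 73 regions, against 1 in vehicle. Each copy of a site counts separately, so these are not 73 sites. On the chromosome 6 sequence between 29 and 33 Mb the same lists held 11 and 0 regions. Over all sequences of the build they held 11683 and 3214. At the HLA-B promoter the highest fold there was 11.5 for RELA after TNFα for 30 min, on QBL, and no RELA region was called on any copy in vehicle. At the PSMB9 downstream site the highest RELA fold in that list was 16.9, on APD, and the highest RELB fold after TWEAK for 6 h was 6.37, on SSTO, with no region in either vehicle list. How reads were divided among near-identical copies was not tested.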

How the results depend on the processing

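No paired analysis was possible because the replicates were merged into 1 list per condition, and for the same reason no replicate could be left out. Of 64 recomputed counts, 56 stayed within 1.5 times the reported one. The number of RELA regions after TNFα for 30 min that overlapped FOSL1 went from 2 to 1 with a window of 5 kb, within 10 kb of the start or with FOSL1 over at least 50% of the region, and to 0 with a fold of at least 5 in every list. The number with H3K27ac in vehicle went from 2 to 1 with a window of 5 kb or within 10 kb of the start and to 0 at a fold of at least 5, and the number with H3K27ac after TNFα for 30 min and not in vehicle went from 1 to 0 at that fold. The window of 5 kb and the distance of 10 kb remove the B2M downstream region by construction. With alternate sequences included, an alternative added after seeing the data, members with RELA after TNFα for 6 h went from 1 to 2 and members with RELB after TWEAK for 6 h from 1 to 2, also where vehicle had none, with the PSMB9 site counted for its nearest gene only. RELA after TNFα for 30 min then had 18 regions. Of these, 16 held the NF-κB consensus, against 37.5% of that list on the chromosomes, and 6 overlapped FOSL1, against 58.0%. H3K27ac was present in vehicle at 11 (60.1%), and after TNFα for 30 min but not in vehicle at 5 (13.1%). Each copy of a site counts separately here, so the 18 regions do not stand for 18 sites. The counts rest on few regions, and merged lists without read totals limit what any difference shows.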
